A study of Mus musculus with 21 samples.

Results

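The 10 genes described here mark epithelial cells of the mammary gland and divide its luminal from its basal layer: the luminal keratins Krt8, Krt18 and Krt19, the basal keratins Krt5, Krt14 and Krt17, the basal transcription factor Trp63, the general epithelial surface genes Epcam and Cdh1, and Acta2. They were listed by gene symbol, with earlier results of these data known, and all 10 of 10 were found among the 19241 genes of the tumour tables. The mammary epithelium has an inner luminal layer, which makes milk and senses hormones, and an outer basal layer of contractile myoepithelial cells, which also holds cells with stem cell activity. Keratins assemble in pairs of an acidic and a basic chain into the intermediate filaments of epithelial cells, with Krt8 and Krt18 paired in luminal cells and Krt5 and Krt14 paired in basal cells. Tumours driven by the polyoma middle T antigen are known mainly as luminal tumours, and loss of Cdh1 and Epcam with gain of Vim is the usual sign of a shift towards a mesenchymal state.

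RNA sequencing was done on mammary tumours of mice of the MMTV-PyMT genotype, in which the mouse mammary tumour virus promoter drives the polyoma middle T antigen in mammary epithelium. All 4 groups carry this transgene, so the sedentary groups are tumour-bearing controls and no normal mammary gland was included. The groups were sedentary mice at week 12, physically active mice at week 12, sedentary mice at week 18 and physically active mice at week 18, each with 3 tumours labelled as biological replicates. The labels state neither the form of the activity nor which tumours came from the same mouse or litter, so p-values measure the spread between these tumours. Libraries came from whole tumours, and in bulk RNA fewer cells of a type and less RNA per cell cannot be told apart.

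The 12 libraries held between 20838963 and 28973775 reads, and the 10 genes took between 0.245% and 0.568% of them. Epithelial RNA was present in every library, since Krt8, Krt18, Epcam and Cdh1 each held at least 6300.4 normalized counts in all 12 tumours. With no normal gland included, these genes cannot separate tumour from normal mammary epithelium. Libraries also carried RNA of other tissues in unequal amounts. The 8 skeletal muscle markers summed to between 45374 and 99452 normalized counts in the sedentary tumours of week 12 and to between 249.3 and 1022 in the active tumours of week 12. All 8 fell in that comparison (limma, median log2 difference -7.40, smallest adjusted p = 0.01), while 0.517% of all genes tested were called in either direction, and none of the 8 was at 0 reads in any tumour. With 1 tumour left out, between 0 and 8 of the 8 were called, 0 without sedentary tumour 1 or 3, 2 without sedentary tumour 2 or active tumour 3, 6 without active tumour 2 and 8 without active tumour 1, and all 8 stayed under an unadjusted p of 0.05. Active tumour 3 of week 12 stood apart from the other libraries. Its 6 B cell markers summed to 21236 normalized counts against 57.5 to 164 in the other 11 tumours, its 8 T cell markers to 12486 against 211 to 473, and its 8 adipocyte markers to 319600.2 against 639.8 to 69462. Values without this tumour are given below beside the differences it moved most.

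The promoters of 3 of the genes, chosen for correlations described below, are shown as background. Their part in these correlations was not tested. Krt8 and Krt18 had the highest Pearson correlation among the 10 genes, and the level of Acta2 correlated with some other contractile genes. Windows of 300 bases, from 250 bases before to 50 bases after the start site, were taken from RefSeq (GRCm38.p6), where 6 of the 10 genes had an entry. They are written 5′ to 3′ on the gene's own strand. In Krt8 (chr15:102004293-102004592, minus strand) and Krt18 (chr15:102027966-102028265, plus strand) the capitals mark the E2-box CACCTG, the letters bound by the Snai and Zeb repressors of epithelial genes. In Acta2 (chr19:34255324-34255623, minus strand) the capitals mark CArG boxes, the letters bound by serum response factor, with 1 core base allowed to differ.
Krt8: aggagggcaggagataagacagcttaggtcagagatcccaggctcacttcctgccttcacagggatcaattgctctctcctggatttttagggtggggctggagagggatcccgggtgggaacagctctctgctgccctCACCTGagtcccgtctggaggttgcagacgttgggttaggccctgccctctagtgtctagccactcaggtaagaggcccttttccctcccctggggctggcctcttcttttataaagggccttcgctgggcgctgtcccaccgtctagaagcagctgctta
Krt18: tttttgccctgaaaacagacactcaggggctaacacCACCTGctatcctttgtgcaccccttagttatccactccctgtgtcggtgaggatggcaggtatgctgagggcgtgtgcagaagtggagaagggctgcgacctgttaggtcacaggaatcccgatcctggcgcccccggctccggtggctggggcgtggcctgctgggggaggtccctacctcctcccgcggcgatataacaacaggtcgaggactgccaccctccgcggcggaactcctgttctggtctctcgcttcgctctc
Acta2: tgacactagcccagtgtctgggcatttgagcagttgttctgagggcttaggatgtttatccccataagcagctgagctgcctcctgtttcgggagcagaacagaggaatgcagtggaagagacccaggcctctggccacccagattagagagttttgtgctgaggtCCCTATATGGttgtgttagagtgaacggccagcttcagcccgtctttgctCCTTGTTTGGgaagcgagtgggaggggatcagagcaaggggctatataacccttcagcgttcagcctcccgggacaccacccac

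The E2-box was searched as CACCTG on either strand, and its first base lay at -111 from the start site in Krt8 and at -214 in Krt18. It occurred in 4 of the 6 windows, the others being Epcam and Krt5, and in 20.2% of the 32851 windows of this length in the RefSeq table. The Acta2 window held 2 CArG boxes with 1 core base differing, at -84 (CCCTATATGG) and -34 (CCTTGTTTGG). Of all windows, 9.98% held at least 1 such box and 0.822% held 2 or more. The strict form was in 1.63% of windows and in none of the 6, and letters in a window do not show that a factor binds there.

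In the GENCODE annotation of GRCm38, Krt8 (ENSMUSG00000049382.10) covers chr15:101996698-102004482 and Krt18 (ENSMUSG00000023043.7) covers chr15:102028180-102032027, 23.7 kb apart. Krt5 (ENSMUSG00000061527.7, chr15:101707070-101712898) lies on the same chromosome, 283.8 kb from Krt8. The acidic keratins Krt19 (ENSMUSG00000020911.14, chr11:100140810-100148665), Krt14 (ENSMUSG00000045545.8, chr11:100203162-100207548) and Krt17 (ENSMUSG00000035557.9, chr11:100256217-100261029) form a run on chromosome 11, with 54.5 kb between Krt19 and Krt14 and 48.7 kb between Krt14 and Krt17. Epcam (ENSMUSG00000045394.9) lies at chr17:87635979-87651129, Cdh1 (ENSMUSG00000000303.12) at chr8:106603351-106670246, Trp63 (ENSMUSG00000022510.14) at chr16:25683763-25892102 and Acta2 (ENSMUSG00000035783.9) at chr19:34241090-34255590. Some keratins resemble each other closely enough for reads to be split between copies. Of the stretches of 50 bases in the Krt8 transcript, 26.9% were also in the pseudogene Krt8-ps, which held 25.3 to 85.3 normalized counts. For Krt14 the share found in another gene was 14.4%, mostly in Krt16, for Krt5 8.52%, mostly in Krt6a, and for Krt17 3.99%. The levels of Krt14 and Krt5 are uncertain by reads that could be placed in these copies, although Krt16 stayed at or below 18.7 normalized counts and Krt6a at or below 149.8.

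Per kilobase of exon, the median levels over the 12 tumours ran from Krt8 (15665 normalized counts per kb) and Krt18 (13491) through Epcam (7711), Krt19 (3948), Acta2 (3764.5) and Cdh1 (3725) to Krt5 (820.4), Krt14 (760.5), Krt17 (398) and Trp63 (65.7). Krt8 was first and Krt18 next in all 12 tumours, and Trp63 was last in all 12. In the middle of this order the neighbours traded places. Epcam lay above Krt19 in 10 of 12 tumours, Cdh1 above Krt5 in 11 of 12, Krt19 above Acta2 in 8 of 12, Acta2 above Cdh1 in 7 of 12, and Krt5 above Krt14 in 7 of 12, and these orders were not tested. Krt8 and Krt18 thus held the highest per-length levels of the 6 keratins in every tumour.

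Krt8, the basic keratin of luminal cells, had normalized counts of 30149.8, 19166 and 30157 in the sedentary tumours of week 12 (replicates 1 to 3), 29403, 32887 and 15275 in the active tumours of week 12, 19694, 31187 and 47792 in the sedentary tumours of week 18, and 37897, 36377 and 34920.3 in the active tumours of week 18. Krt18, its acidic partner, had 19803, 12978 and 16774, then 20556, 18970.1 and 10703, then 12110.3, 21935 and 26017, and 17287, 23930.5 and 22321 in the same order. Both were lowest in active tumour 3 of week 12 and highest in sedentary tumour 3 of week 18, and active and sedentary tumours overlapped at both weeks. The log2 difference of active from sedentary tumours was -0.08 (SE 0.37) for Krt8 and -0.02 (SE 0.32) for Krt18 at week 12, and 0.24 (SE 0.34) and 0.14 (SE 0.34) at week 18. Krt18 turned to 0.02 with edgeR and 0.01 with DESeq2 at week 12.

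Krt19, an acidic keratin of luminal cells and of progenitors, varied far more. It had normalized counts of 5004, 5775 and 10211 in sedentary and 8872, 5164 and 11838 in active tumours of week 12, and 416, 10926 and 13024 in sedentary and 14721, 5700.0 and 4726 in active tumours of week 18. The lowest value, in sedentary tumour 1 of week 18, lay below the 4726 to 14721 of the other 11 tumours, while the high values were spread over all 4 groups. The ratio of Krt19 to Krt18 ranged 32.2-fold over the tumours, from 0.0344 to 1.11, whereas the ratio of Krt8 to Krt18 ranged 1.54-fold, from 1.42 to 2.19. At week 18 the log2 difference of Krt19 was 0.91 (SE 1.45), with a 95% interval from -2.70 to 4.53, and edgeR and DESeq2 both gave 0.05. Without sedentary tumour 1 of week 18 it was -0.70.

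The basal keratin Krt5 had normalized counts of 1175, 2641 and 3208 in sedentary and 1139.7, 394 and 1524 in active tumours of week 12, and 6339, 918 and 4613 in sedentary and 1579, 2026 and 2466 in active tumours of week 18. Krt14, its partner, had 1421, 1539.7 and 1585 in sedentary and 1250.0, 1252 and 879 in active tumours of week 12, and 3008, 984 and 2041 in sedentary and 2720.5, 1034 and 1253 in active tumours of week 18. At week 12 the 3 active tumours lay below the 3 sedentary ones in Krt14, and the groups overlapped in Krt5. The mean of Krt14 was 1127 ± 215 (SD, n = 3) in active and 1515 ± 85.0 (SD, n = 3) in sedentary tumours of week 12, a log2 difference of -0.44 (SE 0.20, limma adjusted p = 0.97). Among all genes, 9.13% did not overlap at week 12 and 4.78% lay lower in active tumours without overlap. The difference of Krt5 was -1.29 (SE 0.65, 95% interval -2.91 to 0.34, limma adjusted p = 0.97). Unlike Krt8 to Krt18, the ratio of Krt5 to Krt14 ranged 7.19-fold, from 0.314 to 2.26.

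Krt17, a keratin of basal and stressed epithelium, had normalized counts of 242, 830.5 and 706 in sedentary and 512, 302 and 389 in active tumours of week 12, and 682, 338 and 788 in sedentary and 1265, 553 and 718 in active tumours of week 18. Trp63, the transcription factor of basal cells, had 367, 564 and 724, then 517, 511 and 400.3, then 1382, 823 and 539, and 906, 698 and 431 in the same order. Groups of the same week overlapped for both genes. Trp63 and the basal keratins Krt5 and Krt14 were highest in the same library, sedentary tumour 1 of week 18.

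Epcam, an adhesion molecule of epithelial cells, had normalized counts of 15223, 15368 and 17129.5 in sedentary and 16592, 16068 and 6300.4 in active tumours of week 12, and 17119, 17802 and 17553 in sedentary and 16731, 17308 and 19139.5 in active tumours of week 18. Cdh1, the E-cadherin of adherens junctions, had 16645, 16896 and 16699, then 15334, 17609 and 7798, then 11635, 17182 and 21707, and 20003, 19317 and 17888 in the same order. Epcam stayed between 15223 and 19139.5 in 11 tumours and lay below that span in active tumour 3 of week 12, which was also lowest in Cdh1. The difference at week 12 was -0.42 (SE 0.42) for Epcam and -0.39 (SE 0.34) for Cdh1. Without active tumour 3 it was 0.04 for Epcam and -0.03 for Cdh1. At week 18 Epcam had the narrowest interval of the 10 genes, 0.02 with a 95% interval from -0.34 to 0.37.

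Acta2, the smooth muscle actin of myoepithelial cells, also made by pericytes, vascular smooth muscle and activated fibroblasts, had normalized counts of 3392, 12934 and 10256 in sedentary and 8422, 2791 and 5711 in active tumours of week 12, and 9229, 9093 and 6602 in sedentary and 10610.5, 8112 and 6107 in active tumours of week 18. The lowest values were in sedentary tumour 1 and active tumour 2 of week 12, and the 4 groups overlapped. Its log2 difference was -0.58 (SE 0.66) at week 12 and -0.03 (SE 0.27) at week 18.

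**Figure D1:**
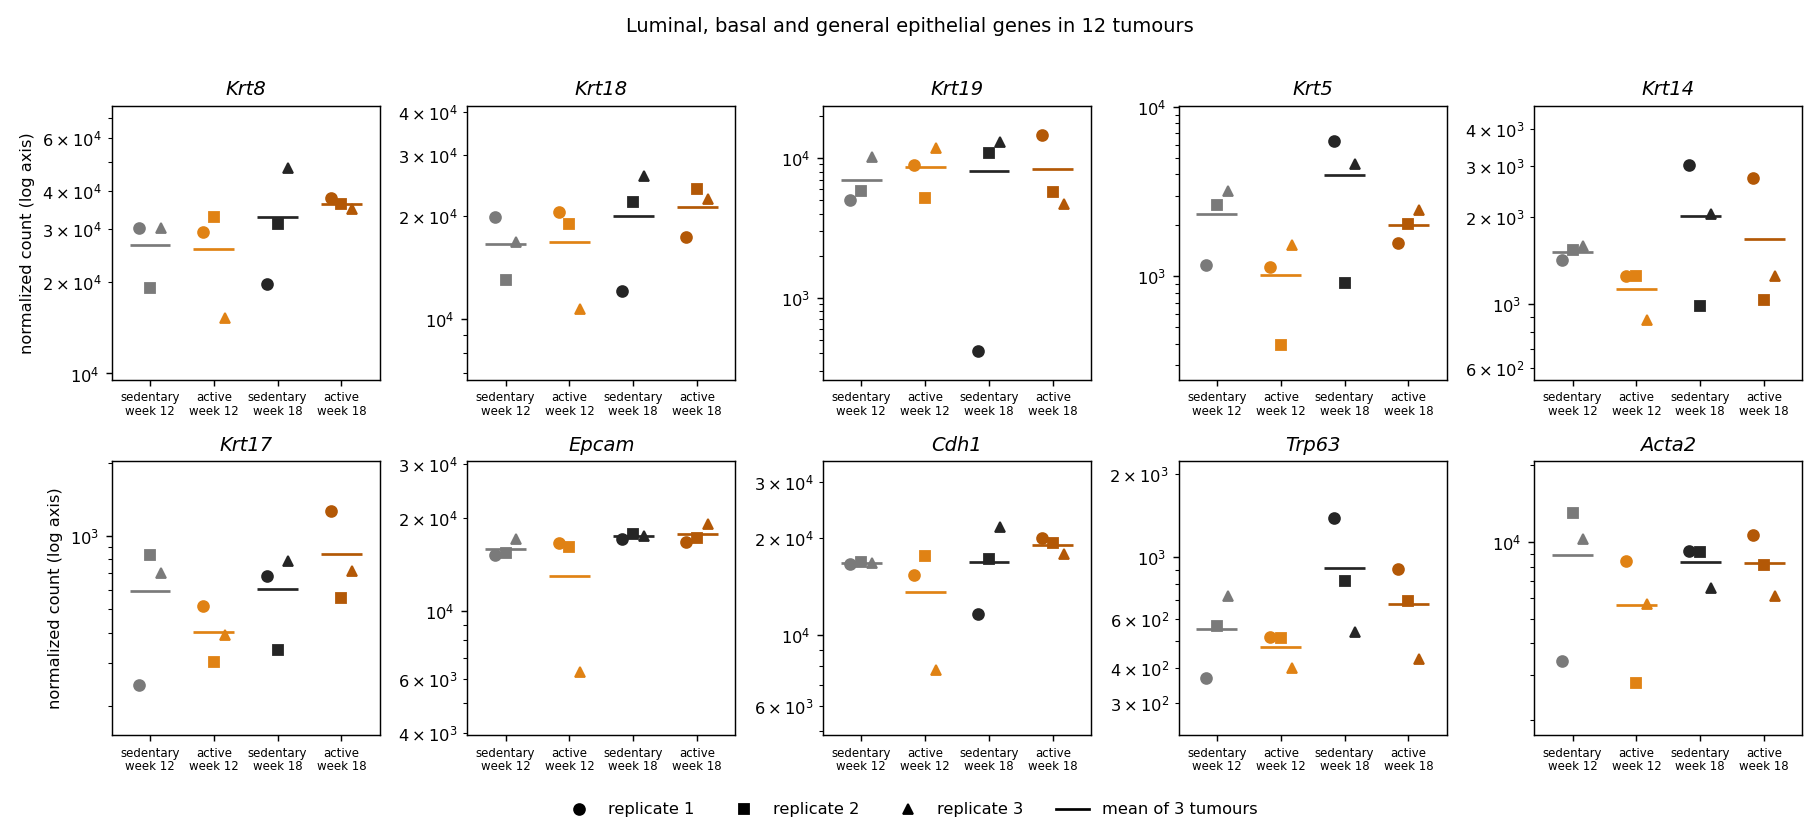
Normalized counts (log axis) of the 10 genes in the 12 tumours, by group, with 1 point per tumour and the marker shape giving the replicate. Krt19 in sedentary tumour 1 of week 18 (416) and Epcam in active tumour 3 of week 12 (6300.4) lie apart from the other 11 tumours of their panels.

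None of the 10 genes passed the threshold (limma, Benjamini-Hochberg adjusted p under 0.05 over all genes tested) in any of the 5 comparisons. At week 12, 9 of the 10 differences were negative in active tumours with a median of -0.40 against 0.01 over all genes. By limma 0 of 10 were under an unadjusted p of 0.05 (4.09% of all genes), and adjusted p-values ran from 0.97 to 0.999. Of the 19162 genes tested, 0.517% were called there. Without active tumour 3 of week 12, 6 of the 10 were negative with a median of -0.04. Krt8 (0.26), Krt18 (0.28) and Epcam (0.04) turned positive and Cdh1 was -0.03. The basal and myoepithelial genes remained negative, with -1.68 for Krt5, -0.66 for Acta2, -0.41 for Krt17, -0.28 for Krt14 and -0.05 for Trp63, none of them called. The sums of muscle, B cell, T cell and adipocyte markers in these tumours are given above, and their part in the values of the 10 genes was not tested.

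At week 18, 6 differences were positive and 4 negative, with a median of 0.08 against 0.01 over all genes, and limma called 0% of 18939 genes, 5.97% of them (1131) being under an unadjusted p of 0.05. Of all genes, edgeR called 0 and DESeq2 52. Again 0 of the 10 genes were under that unadjusted threshold, and 0 had groups without overlap against 13.6% of all genes. Without sedentary tumour 1 of week 18, 4 were positive and 6 negative. The adjusted p-values of the 10 genes ran from 0.839 to 0.987. In the authors' deposited table, the adjusted p-values of the 10 genes were at least 0.700 at both weeks. At week 12 the authors' test gave an unadjusted p of 0.0409 for Krt5 and 0.0348 for Krt14. DESeq2 gave unadjusted p-values of 0.0382 and 0.0362 for them, where 1309 of all 19162 genes were under 0.05.

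The difference between the activity effects of the 2 weeks, tested as an interaction, was positive in 9 of the 10 genes and largest in Krt17 (0.90, SE 0.74) and Krt5 (0.70, SE 1.07). Krt19, at 0.62, turned to -0.23 with edgeR and -0.26 with DESeq2. Limma called 0 of the 10 genes at a background of 0.0104%, with 0 under an unadjusted p of 0.05 (6.33% of all genes) and a smallest adjusted p of 0.774. Without active tumour 3 of week 12, 6 of 10 were positive, and without sedentary tumour 1 of week 18, 7 of 10.

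Between the weeks, sedentary tumours gave 8 positive and 2 negative differences (week 18 minus week 12) with a median of 0.18, the largest being 0.68 (SE 0.43) for Trp63 and -0.77 (SE 1.41) for Krt19. The Krt19 difference turned to 0.23 with edgeR and 0.22 with DESeq2. Limma called 0 of the 10, with 0 under an unadjusted p of 0.05 and smallest adjusted p 0.985, and 0% of all genes were called, 4.98% (946 of 19000) being under an unadjusted p of 0.05. Of all genes, edgeR called 0 and DESeq2 172. No gene of the 10 had groups without overlap against 10.4% of all genes. In active tumours 9 of 10 were positive with a median of 0.57 against -0.03 over all genes. Krt8, Krt5, Krt17, Epcam and Cdh1 were higher in all 3 tumours of week 18 than in any of week 12, 5 of 10 against a background of 12.1% of genes that were higher without overlap and 24.9% in either direction.

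Krt17 was the only one of the 10 under an unadjusted p of 0.05 in that comparison, 1.02 on the log2 scale (SE 0.38, 95% interval 0.07 to 1.97, limma unadjusted p = 0.0403, adjusted p = 0.412). Its smallest adjusted p by another tool was 0.0923 with DESeq2. Limma called 0% of 19182 genes in that comparison, where 12.1% (2322) had an unadjusted p under 0.05, while edgeR called 0 and DESeq2 892 of all genes. Without active tumour 3 of week 12 all 10 differences were positive, with a median of 0.26. Krt8 then differed by 0.23 (0.57 with it), Epcam by 0.12 (0.57), Cdh1 by 0.21 (0.57), Krt5 by 1.57 (1.18) and Krt17 by 1.01 (1.02). In the same comparison the summed adipocyte markers went from between 13110.0 and 319600.2 normalized counts at week 12 to between 639.8 and 3605 at week 18, and fibroblast markers from between 71722 and 131616 to between 14712 and 78697. These markers share the scale of the epithelial genes, and their part in the differences was not tested. Over the 71 fits run for the 10 genes (other scaling, tool, filter, block or library left out), 0 members were called in each of the 71.

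**Figure D2:**
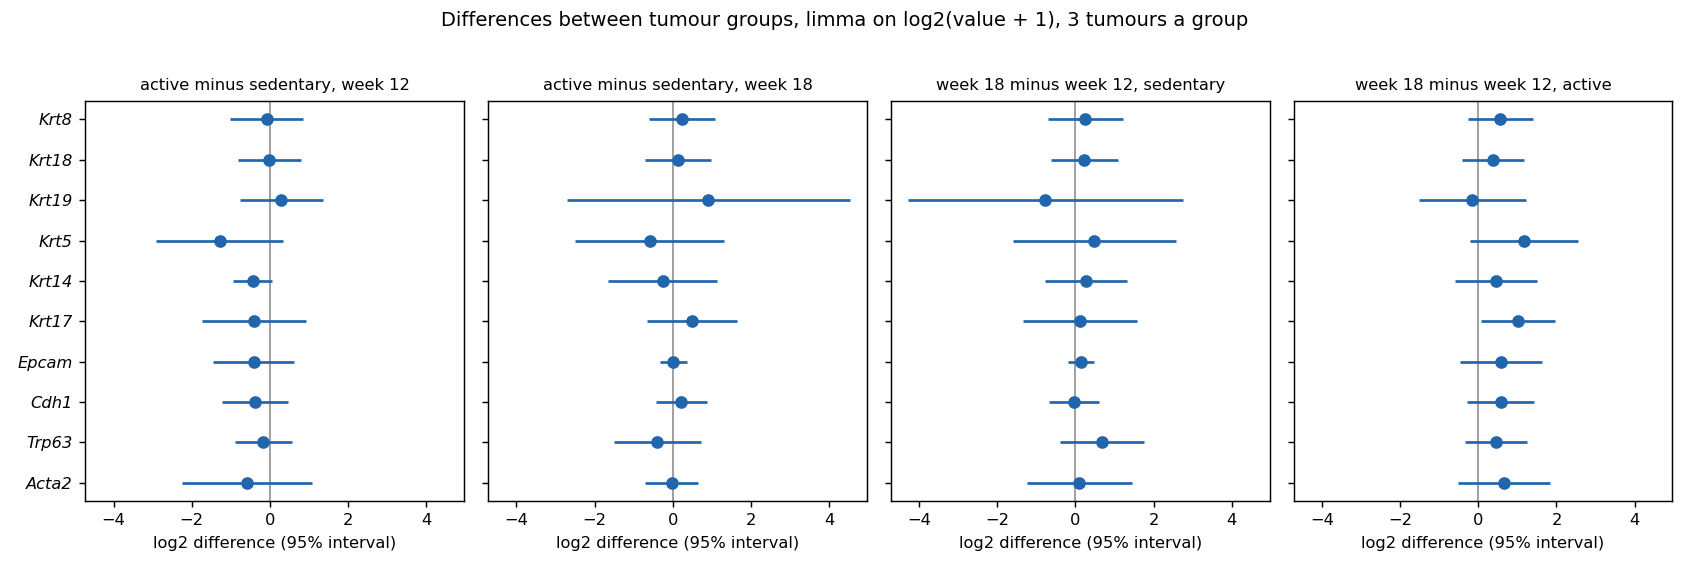
Log2 differences (points) with 95% intervals (lines) of the 10 genes, for active minus sedentary tumours at each week and week 18 minus week 12 in each activity group, from limma on log2(value + 1) with 3 tumours a group. Of the intervals shown, only that of Krt17 in active tumours leaves out 0.

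Basal against luminal state was summarised per tumour as the mean log2(value + 1) of Krt5, Krt14, Krt17 and Trp63 minus that of Krt8, Krt18 and Krt19, with no test since it is a score over the chosen genes. It was -4.53, -3.26 and -3.77 in sedentary and -4.48, -4.81 and -4.20 in active tumours of week 12, and -1.17, -4.79 and -4.16 in sedentary and -3.84, -4.17 and -3.96 in active tumours of week 18. Sedentary tumour 1 of week 18 lay apart at -1.17, against -4.81 to -3.26 in the other 11. Its Krt19 was 0.0469 of the median of the other 11 tumours, against 0.631 for Krt8 and 0.612 for Krt18. Its Krt5 was 4.01, Krt14 2.4, Trp63 2.56 and Krt17 1.23 times that median. Its luminal mean thus leaned most on Krt19, and no score without Krt19 was computed. The means were -3.85 ± 0.64, -4.50 ± 0.31, -3.37 ± 1.93 and -3.99 ± 0.17 (SD, n = 3) in the order of the groups. The difference of active from sedentary tumours was -0.64 at week 12 and -0.62 at week 18, against a pooled within-group SD of 1.03 to which sedentary tumour 1 of week 18 adds most. With 1 tumour left out the week 12 difference ran from -0.98 to -0.35. Without sedentary tumour 1 the week 18 difference was 0.48. Between the weeks the difference was 0.48 in sedentary tumours, and -0.62 without that tumour, and 0.51 in active tumours.

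That tumour combined the lowest Krt19 (416) with the highest Krt5 (6339), Krt14 (3008) and Trp63 (1382), while its Epcam (17119) lay within the other tumours' range. The genes beside them were picked after their values were seen. Krt15, another basal keratin, stood at 2084 against 29.9 to 175 in the other 11. Foxa1, the pioneer factor of hormone-sensing luminal cells, stood at 18.2 against 118 to 1654, and Muc1, a luminal surface mucin, at 688 against 913 to 4842. Gata3, the luminal master regulator, stood at 4686.5, inside the 3473 to 5904 of the others, and Elf5, the factor of alveolar luminal cells, at 7173, also inside. Acta2 (9229) and the contractile genes Cnn1 (1111) and Mylk (3122) were inside the range of the others too. Vim was the lowest of the 12 at 3085. Krt17 (682) lay inside the range of the other tumours, and so did the mean log2(value + 1) of the 25 detected genes of the basal list, 8.98 against 8.44 to 9.41. The same mean over the 22 genes of the luminal list was the lowest of the 12, 9.91 against 10.73 to 11.49.

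**Figure D3:**
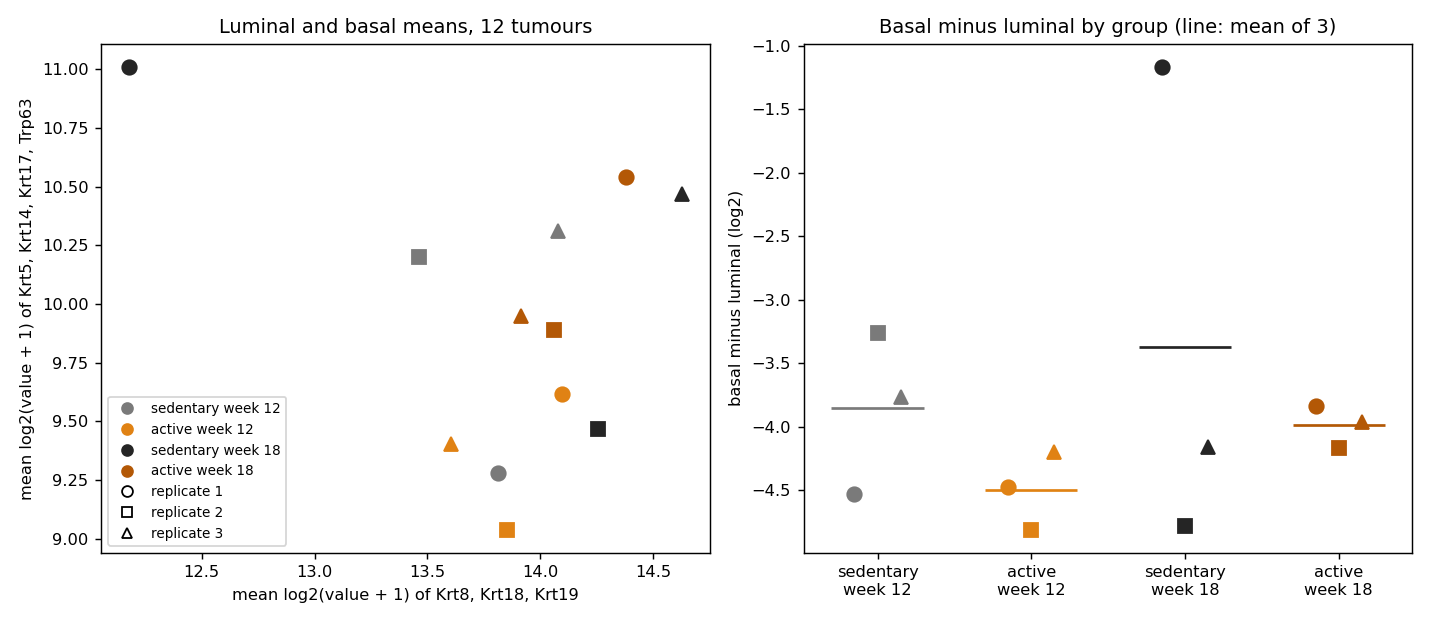
Left, the mean log2(value + 1) of the luminal genes against that of the basal genes in each of 12 tumours; right, basal minus luminal (log2) by group, with the line at the mean of 3. Sedentary tumour 1 of week 18 stands alone at -1.17, and the other 11 tumours lie between -4.81 and -3.26.

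Active tumour 3 of week 12 differed in another way. It held the lowest Krt8 (15275), Krt18 (10703), Krt14 (879), Epcam (6300.4) and Cdh1 (7798), but its Krt19 (11838) was the tenth from the lowest of the 12. In multiples of the median of the other 11 tumours, it had 0.368 of Epcam, 0.454 of Cdh1, 0.490 of Krt8 and 0.540 of Krt18, against 0.753 of Krt5 and 2.05 of Krt19. Among genes picked after their values were seen, Foxa1 (1654) and Esr1, the estrogen receptor (1725), were the highest of the 12, at 9.58 and 7.5 times the median of the others. Elf5 (2876) and Krt7 (1674) were the lowest. Vim, the mesenchymal filament, was the highest at 17783. The B cell, T cell and adipocyte markers of this tumour are given above, and their part in these values was not tested.

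Over the 12 tumours, 45 pairs of the 10 genes were compared by Pearson's r and Spearman's rho of log2(value + 1), with 100000 permutations and adjustment over the 45. Krt8 and Krt18 had r = 0.917 (permutation p = 0.00015, adjusted 0.0034) and rho = 0.748 (permutation p = 0.0069, adjusted 0.10). Without the 2 tumours farthest from the median of Krt8, r was 0.820, and within the weeks it was 0.953 at week 12 and 0.854 at week 18. Krt8 and Cdh1 had r = 0.871 (permutation p = 1e-04, adjusted 0.0034) and rho = 0.930 (permutation p = 6e-05, adjusted 0.0027), with r = 0.981 without 2 tumours, 0.780 at week 12 and 0.986 at week 18. Both relations, of the keratin pair and of Krt8 with the junction gene, were positive within each week.

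Krt18 and Cdh1 had r = 0.795 (permutation p = 0.0011, adjusted 0.016) and rho = 0.685 (permutation p = 0.017, adjusted 0.12), and r = 0.423 without 2 tumours. Epcam and Cdh1 had r = 0.826 (permutation p = 0.028, adjusted 0.14) and rho = 0.573 (permutation p = 0.054, adjusted 0.22). Without active tumour 3 of week 12 and active tumour 3 of week 18, left out together, r was 0.119. The former was the lowest in both genes, and r without it alone was not computed. Within the weeks r was 0.978 at week 12 and 0.0774 at week 18. The partners Krt5 and Krt14 did not pass, and neither did any pair of a luminal with a basal gene, so 3 of 45 pairs passed by r and 1 of 45 by rho. Tumours share a scale, a depth and a makeup of other cells, so these values describe the libraries.

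**Figure D4:**
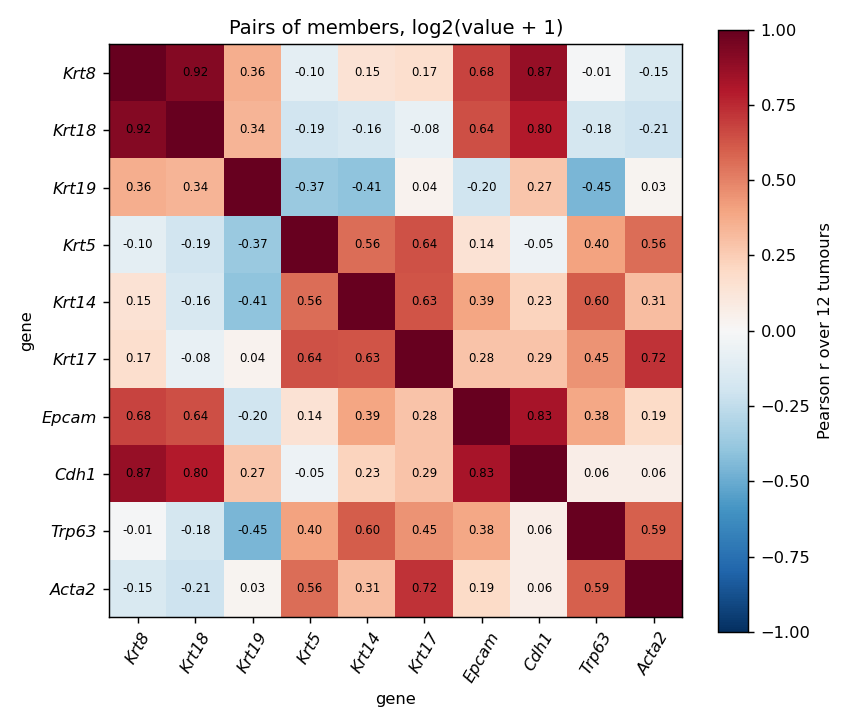
Pearson r of log2(value + 1) over 12 tumours for each pair of the 10 genes, with the value in each square and colour from -1 to 1. Krt8 with Krt18 (0.92) and Krt8 with Cdh1 (0.87) hold the highest values, followed by Epcam with Cdh1 (0.83) and Krt18 with Cdh1 (0.80).

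Acta2 was set against the genes of the basal and of the pericyte list, a choice made after its values were seen. These were 30 relations, adjusted together. With Cnn1, the calponin of contractile cells, r was 0.927 (permutation p = 9e-05, adjusted 0.0027; rho = 0.769, permutation p = 0.0051, adjusted 0.051), and r was 0.737 without the 2 tumours of lowest Acta2, 0.982 at week 12 and 0.539 at week 18. With Oxtr, the oxytocin receptor that drives myoepithelial contraction, r was 0.855 (permutation p = 0.00044, adjusted 0.0044; rho = 0.853, permutation p = 0.00083, adjusted 0.025), and it was 0.728 without the 2 tumours, 0.992 at week 12 and 0.699 at week 18. Id4 (r = 0.876, permutation adjusted p = 0.0033; rho = 0.783, permutation adjusted p = 0.051) and Mylk (r = 0.837, permutation adjusted p = 0.0046; rho = 0.720, permutation adjusted p = 0.08) also passed by r, at 0.772 and 0.596 without the 2 tumours.

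Thus by r 4 of 23 genes of the basal list passed with Acta2, whose median r with that list was 0.271 (from -0.32 to 0.927). Of the pericyte list 0 of 8 passed, with a median r of -0.11 (from -0.342 to 0.58). By rho only Oxtr passed, 1 of the 30. The contractile genes Tagln (r = 0.694, permutation adjusted p = 0.064) and Actg2 (r = 0.651, permutation adjusted p = 0.11) did not pass. At week 18 their r was -0.236 and -0.202. Myh11, which both lists hold, had r = 0.580, with 0.937 at week 12 and -0.175 at week 18. Rgs5, a pericyte gene, had r = -0.326 (permutation p = 0.30), with -0.479 at week 12 and 0.509 at week 18. Pdgfrb, the pericyte receptor, had 0.0322 (permutation p = 0.92), with 0.172 at week 12 and 0.810 at week 18, where Cnn1 had 0.539 and Oxtr 0.699. The difference between the lists was not tested. In sedentary tumour 1 of week 12 and active tumour 2 of week 12, Acta2 was 3392 and 2791 and Cnn1 326 and 162. Oxtr was 497 and 372, Mylk 1427 and 893, and Krt17 242 and 302. Of the pericyte list, Rgs5 was 1898 and 2319, Myh11 1587 and 698.5, Des 3434 and 97.9, and Pdgfrb 774 and 1268. Notch3 of that list was 5980 and 3901, Cspg4 403 and 405, and Kcnj8 208 and 217. Abcc9 was 807.5 and 561.5, and Higd1b 21.6 and 18.5. Krt8 in these tumours was 30149.8 and 32887, near the median of 30672.

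**Figure D5:**
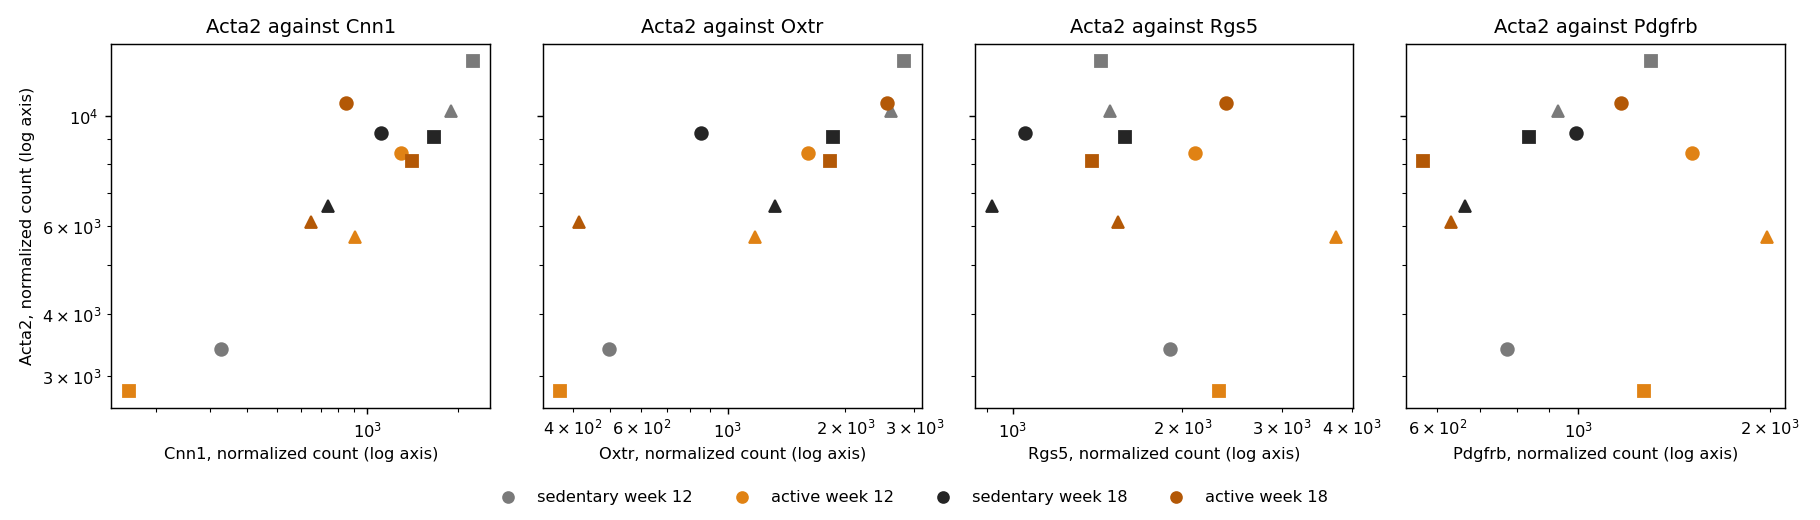
Acta2 against Cnn1, Oxtr, Rgs5 and Pdgfrb in 12 tumours, normalized counts on log axes, coloured by group and shaped by replicate. The tumours with Acta2 of 3392 and 2791 are also the lowest for Cnn1 (326 and 162). They are not the lowest for Rgs5 (1898 and 2319) or Pdgfrb (774 and 1268). Myh11, which both lists hold and which is not shown, was 1587 and 698.5 in them.

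By the same measure over 12 tumours, among 13628 genes with a mean of at least 50, the genes most like Krt8 were C77080 (r = 0.964), Prkci (0.95), an atypical protein kinase C of epithelial polarity, and Iffo2 (0.947), an intermediate filament family gene. Those most like Krt5 were Sostdc1 (0.848), a secreted BMP and Wnt antagonist, Phyhip (0.821) and Samd1 (0.819). Like Krt5 (6339), Sostdc1 (202), Phyhip (391.6) and Samd1 (787) were highest in sedentary tumour 1 of week 18. Their r without that tumour was not computed. Those most like Acta2 were Myl9 (0.972), the regulatory light chain of smooth muscle myosin, Irx4 (0.938), an Iroquois transcription factor, and Dact3 (0.935), a Wnt pathway inhibitor. They are the highest of many values and are given as a description.

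The wider programmes around the 10 genes were read from lists. Of 22 luminal genes, 25 detected of 26 basal and myoepithelial genes, 19 epithelial junction genes, 8 mesenchymal genes and 10 detected of 13 cornified genes, 0 passed the threshold by limma in any of the 5 comparisons (smallest adjusted p 0.33). Of these 84 genes, 2 were under an unadjusted p of 0.05 at week 12, 3 at week 18, 3 in the interaction, 3 between the weeks in sedentary and 7 in active tumours. EdgeR called 0 of them in each. DESeq2 called 0 at week 12 and in the interaction, Dsp at week 18, Krt7 and Spdef between the weeks in sedentary tumours, and 6 between the weeks in active tumours, among them Areg, Foxa1, Lgr5, Pgr and Zeb2. At week 12, 8 luminal genes were positive and 14 negative (median -0.22), 5 basal genes positive and 20 negative (median -0.48), and 0 of 19 junction genes positive (median -0.36), against 0.01 over all genes. Without active tumour 3 of week 12 the junction list had 13 positive and 6 negative (median 0.02), the basal list 9 and 16 (median -0.27) and the luminal list 9 and 13 (median -0.07). At week 18 the medians were 0.12, -0.04 and 0.07 for luminal, basal and junction genes.

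Groups did not overlap in 2 of 84 list genes at week 12, 5 of 84 at week 18, 3 of 83 between the weeks in sedentary tumours and 12 of 84 in active tumours, against 9.13%, 13.6%, 10.4% and 24.9% of all genes. Of the 12, 5 were luminal (4 higher and 1 lower at week 18) and 4 were junction genes (4 higher), and those named are limited to 2 per list and comparison. Itgb4, the integrin beta 4 that anchors basal cells to the basement membrane, was lower in the 3 active tumours of week 12 (3286, 3422.5 and 2366 normalized counts against 9869.6, 4098.5 and 5320.3; log2 difference -1.01, SE 0.38, limma adjusted p = 0.97). Dsp, the desmoplakin of desmosomes, had 14122, 3715 and 9154 in sedentary and 1247, 2695 and 2484 in active tumours of week 18 (-1.95, SE 0.58, limma adjusted p = 0.824). Lgr5, the Wnt-associated stem cell receptor, stood at 144, 224 and 107 in active tumours of week 12 and at 22.9, 33.2 and 27.6 in active tumours of week 18 (-2.41, SE 0.32, limma adjusted p = 0.379). The last was the largest step in units of its SE among the named genes of the lists.

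Of the luminal list, Spdef, an Ets factor of luminal cells, was 282, 329.9 and 551 in sedentary tumours of week 12 and 1008, 1089 and 1008 in those of week 18 (1.48, SE 0.28, limma adjusted p = 0.467), and Krt7, a luminal keratin, differed by 0.55 (SE 0.14, limma adjusted p = 0.611). In active tumours Areg, the EGF receptor ligand of hormone-sensing cells, was 480.1, 76.2 and 394 at week 12 and 31.2, 12.2 and 25.8 at week 18 (-3.44, SE 0.80, limma adjusted p = 0.412). Ovol1 differed by 0.88 (SE 0.31), Spint2 by 0.74 (SE 0.34) and Zeb2 by -1.67 (SE 0.75), with limma adjusted p-values from 0.412 to 0.424. Without active tumour 3 of week 12 these were 0.595 for Ovol1, 0.38 for Spint2 and -0.91 for Zeb2. At week 18 Lgr5 differed by -1.27 (SE 0.36) in active from sedentary tumours and Itga6, the integrin alpha 6 of basal cells, differed by 0.50 (SE 0.23), both with limma adjusted p = 0.824. In the comparison given, groups did not overlap in any of these genes, and limma called none of them.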

How the data were processed

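Polyadenylated RNA of 12 mammary tumours was sequenced from stranded mRNA libraries after TRIzol extraction, per the labels' protocols. The submitters' processing notes name the build mm10, while the aligner, the counter and the annotation are not given in the sources used here. The authors deposited 1 table per week with a normalized signal per gene, which came out as whole reads (100% of values within 0.01 reads) divided by a factor per library. In sedentary tumour 3 of week 18 the factor was 1.01, too near 1 for a formal check of this. The factors equalled the median of ratios over the 12 tumours, so both tables share 1 scale and weeks were compared directly. The deposited tables also give a log2 fold change, a p-value and a test statistic (a score) by the authors.

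Tests used limma 3.58.1 in R 4.3.3 on log2(value + 1) for genes whose mean reached 1 in either group, with Benjamini-Hochberg adjustment (threshold 0.05). This scale understates changes of low genes. The unit led to limma in place of a count test, and edgeR 4.0.16 and DESeq2 1.42.0 on recovered reads served as alternatives. The fits were tested on simulated data. Same-numbered tumours deviated together at week 18 (r = 0.164, 0.159 and 0.139) but not at week 12 (-0.0334, -0.0952 and 0.0922), and the labels give no reason for pairing. All 10 genes are named, and of each list up to 5 genes past the threshold or, if none, up to 2 per comparison without overlap, if the higher group's mean reached 50. A gene that this rule names is not reported here. The members and lists were chosen with earlier results of these data known. Stem cell libraries were not used here. Promoters are from RefSeq GRCm38.p6 and gene positions from GENCODE on GRCm38.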

Additional observations from a re-analysis of the deposited data

How the results depend on the processing

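No member was called in any alternative. The count of all genes called moved with the tool. At week 12 it was 99, with 208 by DESeq2, 0 with the replicate block and 9 to 71 with 1 tumour left out. At week 18 it was 0, with 5 at a pseudocount of 0.1, 52 by DESeq2 and 0 to 5 with 1 tumour left out. The interaction had 2, with 0 by edgeR, 174 by DESeq2, 69 with the replicate block and 0 to 23 with 1 left out. Sedentary tumours between weeks had 0, with 10 at a pseudocount of 0.1, 172 by DESeq2 and 0 to 10 with 1 left out. Active tumours between weeks had 0, with 5 at a pseudocount of 0.1, 892 by DESeq2 and 0 to 1 with 1 left out. The cause of these moves was not tested. The replicate block changed no call of a member. At week 18 same-numbered tumours deviated together (r = 0.164, 0.159 and 0.139), though the labels state no pairing. There Krt8 stayed at 0.24 and Trp63 at -0.39 with the block (limma adjusted p = 0.692), and 0 genes were called.

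Some uncalled differences changed sign with the tool. At week 12, Krt18 was 0.024 by edgeR and 0.007 by DESeq2. In the interaction Krt19 was -0.23 and -0.256, from 0.62. In sedentary tumours between weeks Krt19 was 0.23 and 0.22, from -0.771, Cdh1 0.026 and 0.016, and Acta2 -0.075 and -0.083. The correlation of Krt8 with Trp63 was 0.0132 with TMM scaling. With 1 tumour left out, the ranges that crossed 0 were as follows. At week 12, Epcam -0.659 to 0.04, Krt18 -0.192 to 0.279, Krt8 -0.297 to 0.262 and Trp63 -0.433 to 0.056. At week 18, Acta2 -0.223 to 0.176, Cdh1 -0.02 to 0.43, Epcam -0.039 to 0.058, Krt14 -0.703 to 0.103, Krt18 -0.187 to 0.364, Krt19 -0.699 to 1.783 and Krt8 -0.086 to 0.554. In the interaction, Epcam -0.023 to 0.676, Krt14 -0.258 to 0.548, Krt18 -0.172 to 0.38, Krt19 -0.992 to 1.49, Krt5 -0.154 to 1.239, Krt8 -0.024 to 0.633 and Trp63 -0.551 to 0.128. In sedentary tumours between weeks, Acta2 -0.488 to 0.478, Cdh1 -0.244 to 0.206, Krt14 -0.095 to 0.711, Krt17 -0.434 to 0.489, Krt19 -1.64 to 0.841, Krt5 -0.064 to 1.329 and Krt8 -0.065 to 0.574. In active tumours between weeks, Krt19 -0.652 to 0.168. Basal minus luminal ranged from -1.324 to 0.484 at week 18 and from -0.619 to 1.189 in sedentary tumours between weeks.

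With 3 tumours a group, true differences anywhere inside the stated intervals remain compatible with the data, and no limit of detection was computed. Each of the 10 genes held at least 242 normalized counts in each library, and counting error was not compared with the spread between tumours.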

Other observations

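Genes of cornified and suprabasal epithelium were near the floor in these tumours. The 10 detected of 13 listed genes summed to between 334 and 844 normalized counts per tumour, and up to 3 of them had 0 reads in a tumour. At week 18 the list had 4 positive and 6 negative differences with a median of -0.63, against 0.01 over all genes, and none was called by limma. Without sedentary tumour 1 of week 18 it had 5 and 5 with a median of -0.31.

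The 8 genes of the mesenchymal list summed to between 20749 and 23870 normalized counts in sedentary and between 20380 and 42003 in active tumours of week 12, with the highest sum in active tumour 3. Zeb1 and Zeb2, repressors of Cdh1, stood there at 1647 and 4558 normalized counts, against 295 to 683 and 267 to 1490.5 in the other 11 tumours. Vim, Twist1 and Twist2 of this list were also highest in that tumour. Its Fn1 (17105), Cdh2 (265) and Snai1 (118) lay inside the range of the other tumours. This tumour also held the highest B cell, T cell, adipocyte and endothelial marker sums, and their part in these values was not tested. Endothelial markers summed to between 4315 and 17291 in active and between 3346 and 4082 in sedentary tumours of week 12. Macrophage markers stayed between 6614 and 15399 in the 12 tumours.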
